A study of Mus musculus with 4 samples.

Results

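The MHC class II genes described here are 9 of the 32285 genes in the deposited matrices. They were chosen by name from the antigen presentation pathway, with earlier results of these data known. H2-Aa, H2-Ab1 and H2-Eb1 encode chains of the class II molecules, Cd74 the invariant chain, H2-DMa, H2-DMb1 and H2-DMb2 the peptide exchange factor H2-M, H2-Oa a chain of its inhibitor H2-O, and Ciita the class II transactivator. They were followed in islets of Langerhans of female mice on the C57BL/6J background. Every animal, controls included, was given diphtheria toxin as a newborn (4 injections, the first on postnatal day 2 and the others at intervals of 48 hours) and was weaned at day 21. The animals were either CCR2-DTR+/-, carrying a transgene that places the toxin receptor on cells that express the chemokine receptor CCR2, or wild-type littermates (CCR2-DTR-/-, WT). They were taken at 1 or 6 months of age, so every library was made weeks to months after the toxin. Each genotype and age is represented by 1 single-cell RNA library of 300 islets, pooled from 2 to 3 females, so there are 4 libraries and no group has a replicate.

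Class II molecules are pairs of an alpha and a beta chain that show peptides from the endocytic pathway to CD4+ T cells. They assemble on the invariant chain, which is cut away by proteases in a late endosomal compartment, and H2-M then exchanges its last fragment for other peptides, a step that H2-O restrains in B cells and some dendritic cells. Transcription depends on the transactivator CIITA, which does not itself bind DNA and is held at class II promoters by factors on the X and Y boxes, and which interferon-gamma induces in many cell types. In islets, resident macrophages are the best known class II-positive cells, while endocrine cells of healthy mice carry little or none. C57BL/6 mice carry a defective gene for the partner chain of H2-Eb1, so that H2-Eb1 RNA is made without an H2-E molecule at the surface.

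In the GENCODE vM21 annotation of the GRCm38 build, 7 of the 9 genes lie between positions 34092340 and 34316674 of chromosome 17, and Ciita lies on chromosome 16 at 10480059 to 10528418. RefSeq promoters of the same build (GRCm38.p6) were held for 6 of the genes, and not for H2-Ab1, Cd74 or Ciita. Those of H2-Eb1, H2-DMb2, H2-Aa and H2-Oa are shown because they carry the promoter elements the members share and where they differ. Capitals mark AACNNATG, letters found in class II X boxes, and ATTGG, the core of the Y box (or CCAAT on the other strand), searched on both strands over the 150 bases before the RefSeq start. In the sequences shown, the marked stretches do not overlap.
H2-Eb1 (chr17:34305717-34305866, + strand): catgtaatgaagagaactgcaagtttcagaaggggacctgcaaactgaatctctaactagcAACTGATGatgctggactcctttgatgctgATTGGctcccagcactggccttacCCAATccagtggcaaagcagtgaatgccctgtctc
H2-DMb2 (chr17:34145099-34145245, + strand): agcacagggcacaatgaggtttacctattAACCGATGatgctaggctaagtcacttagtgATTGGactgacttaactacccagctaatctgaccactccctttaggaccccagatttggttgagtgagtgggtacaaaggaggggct
H2-Aa (chr17:34287824-34287973, - strand): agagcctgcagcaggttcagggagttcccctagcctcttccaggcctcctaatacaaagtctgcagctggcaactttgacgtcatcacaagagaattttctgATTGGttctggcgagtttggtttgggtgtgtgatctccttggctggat
H2-Oa (chr17:34092229-34092349, + strand): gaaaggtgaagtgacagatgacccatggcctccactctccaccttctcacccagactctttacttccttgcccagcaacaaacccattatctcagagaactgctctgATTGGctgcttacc
H2-Eb1, H2-DMb1 and H2-DMb2 held both motifs on the gene strand. H2-Eb1 had AACTGATG beginning 89 bases before the start and ATTGG at 59 bases, H2-DMb1 had AACTGATG at 92 and ATTGG at 61 (119 of the 150 bases of its window lie in an exon of H2-DMb1 in GENCODE vM21, so that these are positions before the RefSeq start alone), and H2-DMb2 had AACCGATG at 121 and ATTGG at 90. H2-Aa and H2-Oa held ATTGG, at 48 and 43 bases, with no AACNNATG in the window, and neither RefSeq promoter of H2-DMa held either motif. The search took these letters alone, so a window without AACNNATG was not shown to lack an X box. Among 32851 RefSeq promoters, 24.5% held ATTGG and 4.43% held AACNNATG in the same window. The 2 motifs in this order on the gene strand, with their first bases 25 to 35 apart, a spacing chosen after the members were read, were found in 8 promoters, 0.0244% of all. Those 8 include H2-Eb1, H2-DMb1 and H2-DMb2 and 2 other class II genes, H2-Eb2 and H2-Ob. The H2-DMb1 window, exonic bases included, and the H2-DMb2 window were alike at 85.1% of 121 aligned bases.

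Depth bears on every value. The libraries held 60315217 to 121292320 UMIs (unique transcript counts) in 5089 to 12444 barcodes, of which 3633 to 8736 per library were kept, and pairs of libraries shared 6 to 34 barcode sequences, at most 0.422% of the smaller library. Between 9.37% (WT, 1 month) and 23.9% (CCR2-DTR, 6 months) of barcodes exceeded 15% mitochondrial UMIs and were left out. Cell classes were called from marker genes after clustering without the 9 genes themselves, and are written "-like" because they rest on RNA alone. Levels are CPM, the UMIs of a gene per 1000000 UMIs of a class in a library, with exact Poisson 95% intervals, and ratios of levels have exact conditional 95% intervals. Both express counting error alone and say nothing of how animals or islet preparations vary, and with 1 library per group no test was run. Levels are compared between classes and libraries, not between genes. Beta-like (7804), alpha-like (6150) and delta-like (2530) cells made up most of the cells.

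The class II genes set macrophage-like, other myeloid and B-cell-like cells far apart from endothelial-like, beta-like, alpha-like and delta-like cells, as the plot of summed levels by cell class shows. H2-Aa, H2-Ab1, H2-Eb1 and Cd74 together stood at 47050 to 90469 CPM in the 348 macrophage-like cells of the 4 libraries, which carry the complement genes C1qa, C1qb and C1qc. The other myeloid cells (74, led by Lyz2, Retnla and S100a9 or by Irf8, Lsp1 and Cd52) followed at 39337 to 79384 CPM, and the 66 B-cell-like cells at 16261 to 26010 CPM. The macrophage-like level was above the other myeloid level in each of the 4 libraries, but the ranges of those classes over the libraries overlapped; neither overlapped the B-cell-like range. Plasma-cell-like cells, present in the CCR2-DTR libraries, held 5321 CPM (3 cells) and 4978 CPM (23 cells). The T-cell-like cells of both WT libraries and of the CCR2-DTR 1-month library held 0 of these UMIs in 6 to 8 cells each, which allows up to 127 to 169 CPM when set to 3 UMIs, and up to 157 to 208 CPM by the exact interval. In the CCR2-DTR 6-month library 437 such UMIs were read in T-cell-like cells, where 1 of 54 cells held 10 or more.

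**Figure D1:**
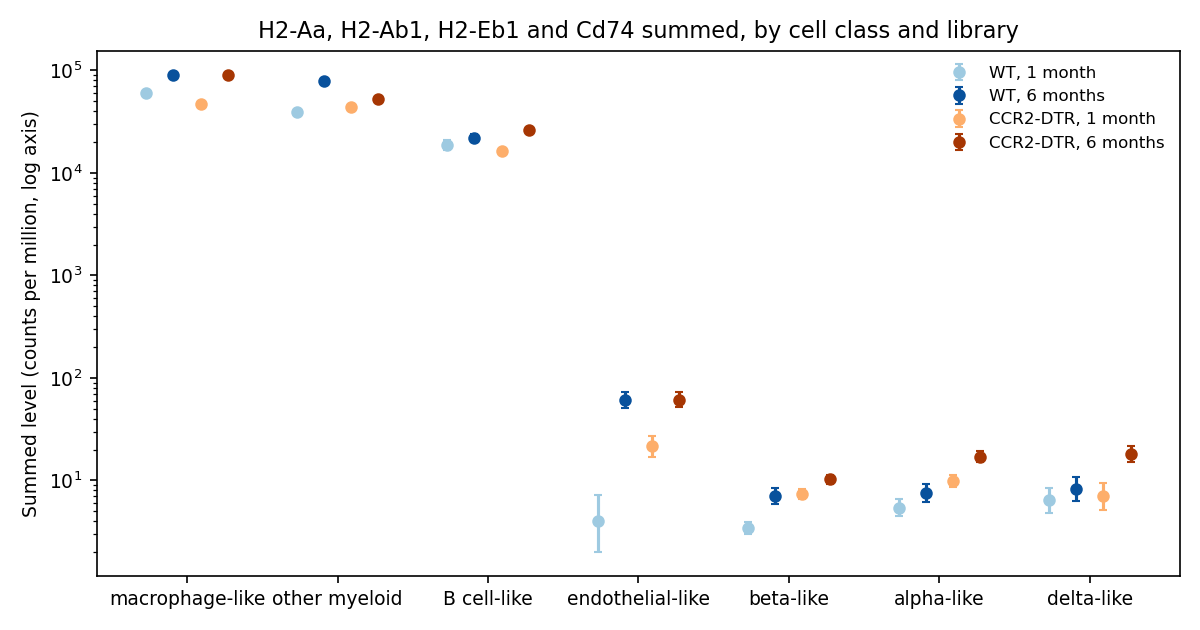
Summed level of H2-Aa, H2-Ab1, H2-Eb1 and Cd74 (CPM, log axis) by cell class, 1 point per library, with exact Poisson 95% intervals that cover counting error only. Macrophage-like, other myeloid and B-cell-like cells lie between 16261 and 90469 CPM, and endothelial-like, beta-like, alpha-like and delta-like cells between 3.42 and 61.3 CPM.

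In macrophage-like cells every chain gene and the invariant chain were higher in the 6-month library than in the 1-month library, in both genotypes. H2-Aa stood at 10594 CPM in WT and 8314 CPM in CCR2-DTR at 1 month, and at 17181 and 17140 CPM at 6 months. H2-Ab1 stood at 7884 and 6534 CPM at 1 month and at 14979 and 13902 CPM at 6 months, in the same order. Both 6-month libraries were above both 1-month libraries for each of these genes, and the 6-month intervals of the 2 genotypes overlapped for H2-Aa but not for H2-Ab1. H2-Eb1 went from 9467 and 7439 CPM to 15769 and 15937 CPM. Cd74, whose product chaperones the chains, went from 32263 and 24763 CPM to 41601 and 43490 CPM. The 4 genes summed were 1.49-fold higher at 6 months in WT (95% interval 1.46 to 1.51, 66 against 94 cells) and 1.92-fold higher in CCR2-DTR (1.89 to 1.95, 97 against 91 cells).

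The size of the difference varied among the 4 genes, and Cd74 had the smallest ratio in both genotypes. In WT, H2-Ab1 had the largest ratio of the 4, 1.90 (1.82 to 1.98), against 1.67 (1.60 to 1.73) for H2-Eb1, 1.62 (1.56 to 1.68) for H2-Aa and 1.29 (1.26 to 1.32) for Cd74. In CCR2-DTR the 3 chain genes lay together, at 2.06 (1.99 to 2.14) for H2-Aa, 2.13 (2.04 to 2.22) for H2-Ab1 and 2.14 (2.06 to 2.23) for H2-Eb1, and Cd74 was at 1.76 (1.72 to 1.79). The intervals of the chain genes and of Cd74 did not overlap in either genotype, so the chain RNAs differed more with age than the RNA of their chaperone within these libraries.

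**Figure D2:**
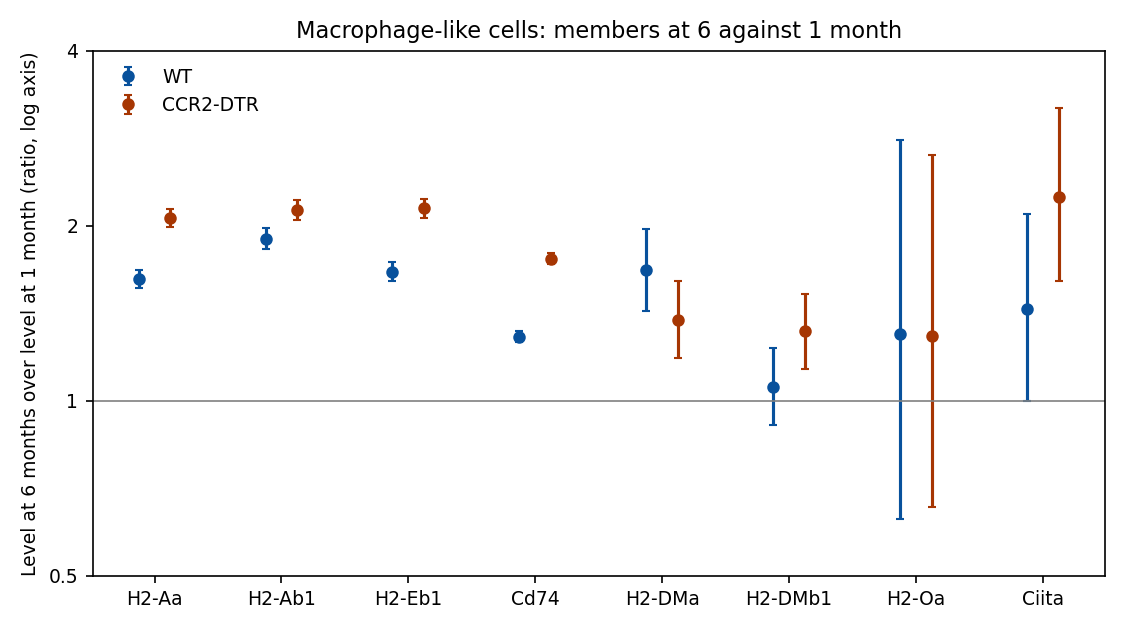
Ratio of the level at 6 months to that at 1 month in macrophage-like cells (log axis), for WT and CCR2-DTR, with exact conditional 95% intervals for counting error. H2-Aa, H2-Ab1, H2-Eb1 and Cd74 lie above 1 in both genotypes, from 1.29 to 2.14; H2-Oa and, in WT, H2-DMb1 and Ciita have intervals that include 1, and H2-DMb2 is not drawn because it had 1 and 2 UMIs at 1 month.

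The peptide exchange genes differed less evenly. H2-DMa, the alpha chain of H2-M, stood at 533 CPM in WT and 540 CPM in CCR2-DTR at 1 month and at 894 and 744 CPM at 6 months, a ratio of 1.68 (1.43 to 1.98) in WT and 1.38 (1.18 to 1.61) in CCR2-DTR. With every cell weighted the same the WT ratio was 1.55. In 1 draw that thinned each cell to 1000 UMIs, leaving 63 and 56 H2-DMa UMIs in WT, it was 1.27. H2-DMb1, a beta chain of H2-M, stood at 717 and 573 CPM at 1 month and at 757 and 754 CPM at 6 months. Its ratio was 1.06 (0.907 to 1.23) in WT, an interval that includes 1, and 1.32 (1.14 to 1.53) in CCR2-DTR. H2-DMb2, the other beta chain gene, had 1 and 2 UMIs at 1 month and 5 and 15 UMIs at 6 months, a ratio of 4.84 in CCR2-DTR with a counting interval from 1.13 to 43.6 and of 3.84 in WT with one from 0.430 to 182. H2-Oa had 13 to 28 UMIs per library, and its intervals included 1 in both genotypes (0.627 to 2.81 in WT and 0.657 to 2.65 in CCR2-DTR).

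Ciita, the transactivator, was read in few molecules per cell, with 47 and 46 UMIs at 1 month and 88 and 160 UMIs at 6 months. Its level went from 113 to 163 CPM in WT and from 98.7 to 221 CPM in CCR2-DTR. The ratio was 2.24 (1.61 to 3.19) in CCR2-DTR and 1.44 in WT, where the interval, 0.999 to 2.10, reached 1. At least 1 Ciita UMI was read in 29.8% and 27.5% of macrophage-like cells at 1 month and in 66.7% and 70.1% at 6 months. These shares follow depth as well, since the cells held a median of 4315 and 4967 UMIs at 1 month and 8368 and 7022 UMIs at 6 months; with 1000 UMIs from each cell the expected shares would be 10.6% and 7.98% in the younger libraries and 14.9% and 21.3% in the older. The WT ratio was 1.39 with every cell weighted the same. It was 0.877 in 1 draw at 1000 UMIs per cell, which left 13 and 8 Ciita UMIs, too few to read a direction from. Because the counting interval reached 1, the direction of Ciita in WT is not settled at this depth. In beta-like cells, at a median of 14422 to 29031 UMIs, 4 of 7804 cells held a Ciita UMI.

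Of the 9 genes, 7 passed the floor of 50 CPM in either library and 10 UMIs over both; H2-DMb2 and H2-Oa did not. At least 1.5-fold higher at 6 months were 4 of the 7 in WT, where 8.09% of 3053 genes past the floor were, and 5 of the 7 in CCR2-DTR, where 9.06% of 3036 were. At least 2-fold higher were 0 of the 7 in WT (2.49% of all genes past the floor) and 4 of the 7 in CCR2-DTR (2.83%). All 7 had a ratio above 1 in both genotypes, and 0 of the 7 were 1.5-fold lower, beside 13.8% of all genes past the floor in WT and 15.7% in CCR2-DTR. The median log2 ratio of the 7 was 0.70 in WT and 1.04 in CCR2-DTR, beside -0.11 and -0.13 for all genes past the floor. The members were chosen with earlier results of these data known, so these counts describe them and test nothing. Both age comparisons were made on different libraries, and the difference between the WT and CCR2-DTR ratios has no replicate to be tested with.

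Between genotypes, the 1-month libraries differed more than the 6-month libraries did. At 1 month the 4 summed genes were at 0.782 of the WT level in CCR2-DTR (0.767 to 0.796), with ratios from 0.768 for Cd74 to 0.829 for H2-Ab1. Some alternatives gave a ratio above 1. It was 1.24 as an unweighted mean over sub-clusters with at least 10 cells in both libraries. Of these only the sub-cluster led by F13a1, Lyve1 and Folr2 was above 1, with 14301 CPM in 27 CCR2-DTR cells against 7245 CPM in 12 WT cells. It was 1.26 over barcodes chosen by their C1q UMIs, of which 66.8% (WT) and 67.3% (CCR2-DTR) were beta-like, alpha-like or delta-like cells. Over all macrophage-like cells at 1 month, H2-DMb1 was at 0.799 (0.675 to 0.946) of WT. H2-DMa was at 1.01 (0.843 to 1.22) and Ciita at 0.870 (0.566 to 1.34), so that this pair could not be told from no difference by counting error. At 6 months the sum was at 1.01 of WT (0.999 to 1.02), H2-Ab1 at 0.928 (0.901 to 0.956), H2-DMa at 0.832 (0.734 to 0.943) and Ciita at 1.36 (1.04 to 1.78). None of the 7 genes past the floor was 1.5-fold higher or lower in either genotype comparison, where 11.2% of genes at 1 month and 5.74% at 6 months were higher and 9.31% and 6.09% lower. These comparisons use the same libraries as those of age. UMIs of islet hormones, which macrophages do not make, took 2.67% and 6.30% of the macrophage-like UMIs at 1 month (WT and CCR2-DTR) and 3.66% and 4.14% at 6 months; without cells above 5%, the 1-month genotype ratio was 0.703 and the age ratios were 1.496 in WT and 2.14 in CCR2-DTR. That limit kept 19 of the 91 cells of the CCR2-DTR 1-month library, against 87 of 94 (WT) at the same age and 55 of 66 (WT) and 74 of 97 (CCR2-DTR) in the 6-month libraries, so the 0.703 and the 2.14 rest on 19 cells.

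Per cell, the libraries differed at the low end as well as in the middle. The 4 genes took a median of 6.54% of a macrophage-like cell's UMIs in WT and 5.24% in CCR2-DTR at 1 month, and 8.999% and 9.07% at 6 months. The 10th percentile of cells lay at 0.517% and 0% at 1 month and at 6.20% and 5.32% at 6 months. The highest cell held 13.4% and 11.0% at 1 month and 12.7% and 17.9% at 6 months. Cells under 2%, a limit chosen after the values were seen, made up 16 of 94 cells in WT (17.02%, Clopper-Pearson 95% interval 10.1 to 26.2) and 28 of 91 in CCR2-DTR (30.8%, 21.5 to 41.3) at 1 month, against 3 of 66 (4.55%) and 3 of 97 (3.09%) at 6 months. In the same order, 11 of the 16 and 21 of the 28 belonged to the sub-cluster led by F13a1, Lyve1 and Folr2.

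**Figure D3:**
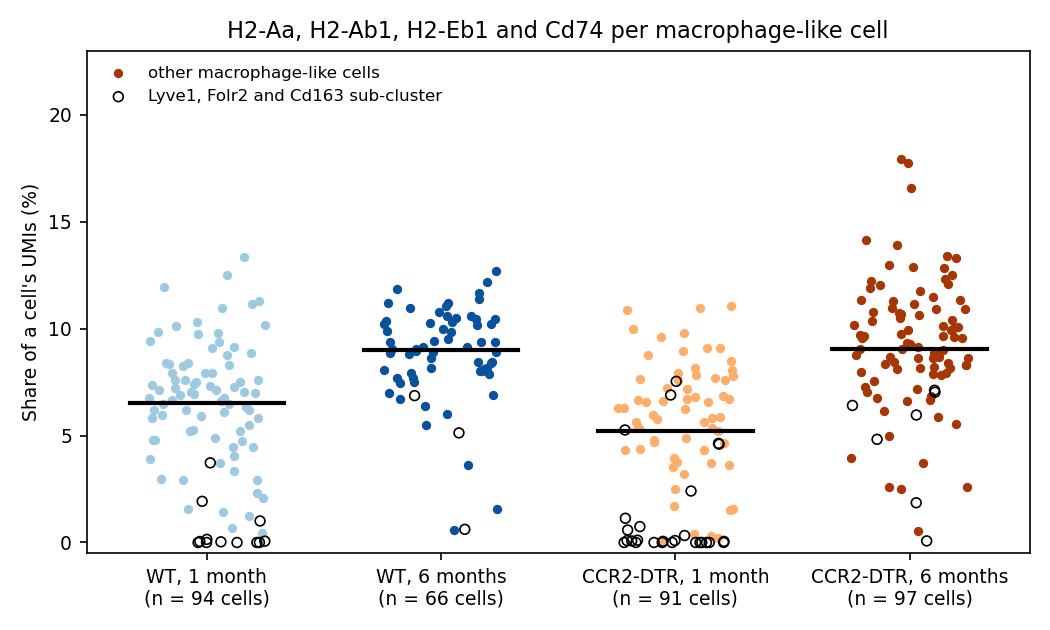
Share of a cell's UMIs (%) from H2-Aa, H2-Ab1, H2-Eb1 and Cd74 in each macrophage-like cell, by library; bars are medians and open circles are cells of the Lyve1, Folr2 and Cd163 sub-cluster. Medians are 6.54% and 5.24% at 1 month and 8.999% and 9.07% at 6 months, and most cells near 0 are open circles from the 1-month libraries.

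The macrophage-like cells fell into 4 sub-clusters, made without the 9 genes, whose sizes differed between libraries. The sub-cluster led by Meg3, Nes and Lsp1 held 64 and 48 cells at 1 month and 15 and 17 at 6 months (WT and CCR2-DTR), and the one led by Cxcr4, Ifit3 and Gdf3 held 7 and 2 at 1 month and 44 and 69 at 6 months. The sub-cluster led by F13a1, Lyve1 and Folr2, with Cd163 and Mrc1, genes known from macrophages of connective tissue and vessels, took 12.8% and 29.7% of macrophage-like cells at 1 month and 4.55% and 7.22% at 6 months. A sub-cluster led by Fabp5, Gpnmb and Spp1, genes known from lipid-laden macrophages, held 4 to 14 cells per library.

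Within the Meg3, Nes and Lsp1 sub-cluster, the only one with at least 10 cells at both ages, the summed level went from 70560 to 97663 CPM in WT and from 66409 to 108758 CPM in CCR2-DTR. The age ratio there was 1.38 in WT and 1.64 in CCR2-DTR. H2-Ab1 went from 9232 to 15830 CPM and from 9002 to 16698 CPM in this sub-cluster, and H2-DMa from 654 to 864 CPM and from 694 to 824 CPM. The Lyve1 and Folr2 sub-cluster was the lowest of the 4 in each library but CCR2-DTR at 6 months, where it stood at 45378 CPM in 7 cells beside 44011 CPM in the 4 cells of the Fabp5, Gpnmb and Spp1 sub-cluster. It held 7245 and 14301 CPM at 1 month and, in 3 and 7 cells, 40767 and 45378 CPM at 6 months, and its median cell at 1 month held 0.0386% and 0.0725%. Leaving that sub-cluster out, an alternative chosen after seeing the data, gave age ratios of 1.38 in WT and 1.61 in CCR2-DTR, and a 1-month genotype ratio of 0.876.

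**Figure D4:**
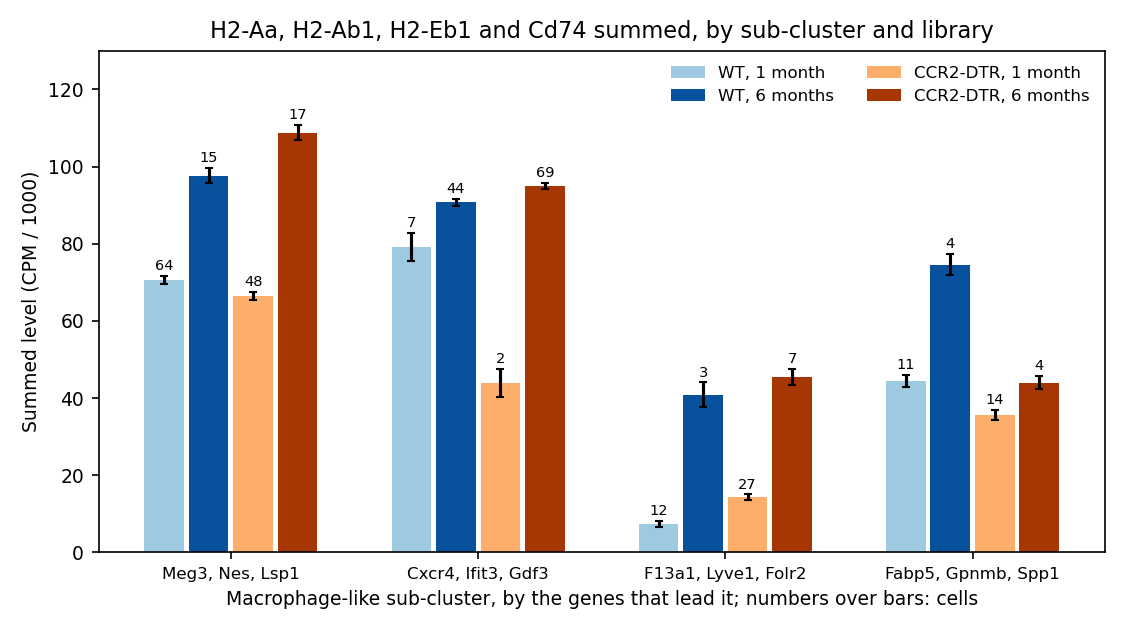
Summed level of H2-Aa, H2-Ab1, H2-Eb1 and Cd74 (CPM divided by 1000) in the 4 macrophage-like sub-clusters, by library, with exact Poisson 95% intervals for counting error and the number of cells over each bar. In each sub-cluster and genotype the 6-month bar is above the 1-month bar, from sub-clusters of 2 to 69 cells.

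The genotype difference at 1 month was not in the same direction in every sub-cluster. CCR2-DTR was at 66409 CPM against 70560 CPM in the Meg3, Nes and Lsp1 sub-cluster, at 35628 against 44435 CPM in the Fabp5, Gpnmb and Spp1 sub-cluster, and at 14301 against 7245 CPM in the Lyve1 and Folr2 sub-cluster. The mean of those 3 ratios was 1.24, above 1, where the ratio over all macrophage-like cells was 0.782. With 46, 40, 22 and 39 immune cells that were left without a class added (WT and CCR2-DTR at 1 month, then at 6 months; 22.2% to 29.97% of their UMIs were hormone transcripts), the age ratio was 2.27 in WT and 1.98 in CCR2-DTR.

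Within a library, the 4 genes moved together from cell to cell. Spearman's rho between pairs of them was 0.83 to 0.94 over the 94 and 91 cells at 1 month and 0.52 to 0.82 over the 66 and 97 cells at 6 months, a description in which all points share a library and each gene's share has the same total. The share of class II UMIs had a rho of 0.11 to 0.23 with the depth of the cell. With the level of Mrc1, the mannose receptor, it had -0.46 and -0.59 at 1 month and -0.21 and -0.26 at 6 months.

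The H2-M beta chains changed places between cell classes. Macrophage-like cells had 1517 UMIs of H2-DMb1 and 23 of H2-DMb2, so that H2-DMb2 made up 1.49% (Clopper-Pearson 95% interval 0.949 to 2.23), and 0.336% to 2.68% by library. B-cell-like cells had 38 UMIs of H2-DMb1 and 197 of H2-DMb2, a share of 83.8% (78.5 to 88.3), and 72.7% to 91.7% by library. The CCR2-DTR 6-month library gave 30 of the 38. Its B-cell-like cells, which had the highest summed class II level of the class (26010 CPM), also held 36, 54 and 34 UMIs of C1qa, C1qb and C1qc. Those of the remaining libraries held 0 or 1 C1qa UMI and 0 of C1qb and C1qc. The part of macrophage RNA in these values was not tested. Other myeloid cells lay between them at 27.4% (23.6 to 31.4) and 11.7% to 36.7% by library. The ranges of the 3 classes over the 4 libraries did not overlap. Of 348 macrophage-like cells 274 held UMIs of H2-DMb1 alone and 2 of H2-DMb2 alone, while of 66 B-cell-like cells 2 held H2-DMb1 alone and 35 H2-DMb2 alone. The longest coding transcripts of the 2 genes are alike at 94.6% of 1219 aligned bases, and 206 of 1393 stretches of 91 bases in H2-DMb2 also occur in H2-DMb1, so reads could be lost or shared between them; how such reads were treated is not given in the sources used here.

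**Figure D5:**
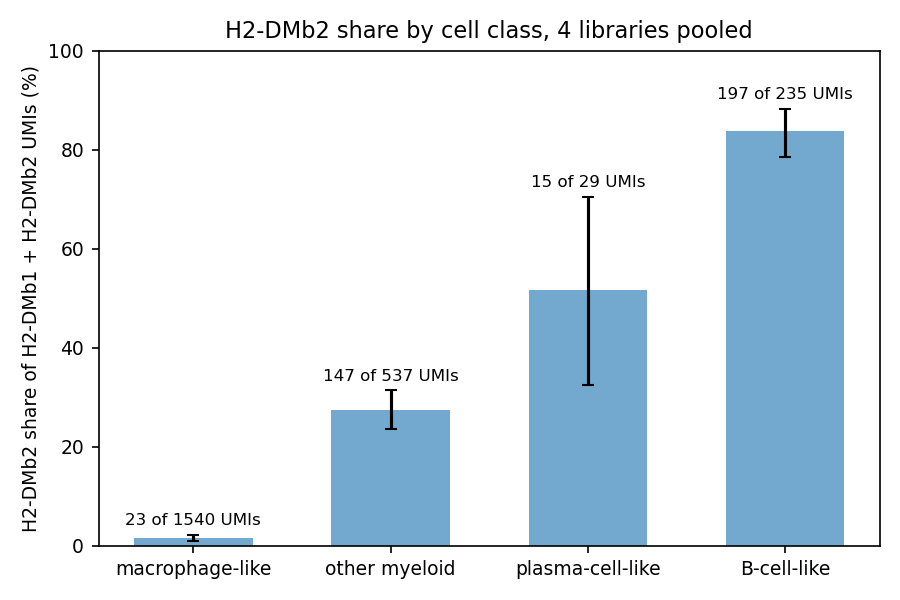
H2-DMb2 as a share (%) of the H2-DMb1 and H2-DMb2 UMIs in 4 immune classes, with the 4 libraries pooled; bars carry exact Clopper-Pearson 95% intervals for counting error and the UMIs behind them. The share is 1.49% in macrophage-like, 27.4% in other myeloid, 51.7% in plasma-cell-like and 83.8% in B-cell-like cells.

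H2-Oa, a chain of the inhibitor of H2-M, followed the same order. It had 5.16 UMIs per 100 UMIs of H2-DMa in macrophage-like cells (77 against 1493 UMIs), 18.1 in other myeloid cells (99 against 547) and 52.3 in B-cell-like cells (69 against 132). In B-cell-like cells the libraries with over 10 cells stood at 36.4 (CCR2-DTR, 1 month) and 54.4 (CCR2-DTR, 6 months), and other myeloid cells at 6.19 and 22.8 in the same libraries, while macrophage-like cells stayed between 4.56 and 5.88 in all 4. H2-Oa overlaps an antisense gene, BC051537, in the annotation.

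Among other myeloid cells, class II RNA was held by nearly every cell. At least 1 Cd74 UMI was read in 55 of 59 cells of the sub-cluster led by Lyz2, Retnla and S100a9 and in all 15 cells of the one led by Irf8, Lsp1 and Cd52. The first held Ccr2 in 42 cells, Cd209a in 18 and Flt3 in 16, genes of monocytes and conventional dendritic cells. It also held the complement gene C1qa in 20 cells, and the neutrophil genes S100a8 and S100a9 in 3 each. Of the marker sets, that of neutrophils scored highest for it (3.32) and that of dendritic cells next (1.82). In the second, Xcr1, a receptor of cross-presenting dendritic cells, was read in 14 of 15 cells. Ciita stood at 260, 244, 429 and 434 CPM in these other myeloid cells (WT and CCR2-DTR at 1 month, then at 6 months), above the macrophage-like level of the same library each time. The libraries gave 10, 21, 7 and 36 such cells, and in CCR2-DTR, where both ages had at least 20, the 4 summed genes were 1.22-fold higher at 6 months (1.18 to 1.26).

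B-cell-like cells numbered 7, 19, 5 and 35 in the same order of libraries, too few for a ratio of ages. Cd74 stood at 11554, 9599, 12186 and 14032 CPM there and H2-Aa at 3227, 2937, 4768 and 4937 CPM. Both were below the macrophage-like and other myeloid levels of the same library. Ciita, at 104 to 318 CPM, overlapped the macrophage-like range of 98.7 to 221 CPM.

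Endothelial-like cells (1961 cells, with Flt1, Plvap and Kdr among their leading genes) held few class II UMIs, in 11 to 55 cells per library. The 4 genes summed to 11, 72, 119 and 138 UMIs (WT and CCR2-DTR at 1 month, then at 6 months), or 4.03, 21.7, 61.1 and 61.3 CPM. In the WT 6-month library, 2 of 314 cells held 94 of the 119 UMIs, and 1 of them 73. The UMIs were less concentrated elsewhere: 1 cell held 24 of the 72 in CCR2-DTR at 1 month, 5 cells held 65 of the 138 in CCR2-DTR at 6 months, and the 11 of WT at 1 month lay in 11 cells. Without barcodes that also held UMIs of C1qb, C1qc, Lyz2, Tyrobp, Ptprc, Fcer1g or Laptm5, genes of myeloid and other white blood cells, the level was 3.95, 14.7, 11.5 and 50.1 CPM, so that the WT 6-month level was near the CCR2-DTR 1-month level and the CCR2-DTR 6-month level was the highest. In that library 55 of 363 endothelial-like cells (15.2%, 11.6 to 19.3) held at least 1 of these UMIs, and Ciita had 5 UMIs there against 0 in the other 3 libraries. The shares with such a UMI expected at 1000 UMIs per cell were 0.450%, 1.71%, 2.28% and 4.95%, beside 0.315%, 0.779%, 0.889% and 1.85% in beta-like cells.

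In beta-like, alpha-like and delta-like cells the summed level stayed between 3.42 and 18.2 CPM. Beta-like cells stood at 3.42, 7.36, 7.04 and 10.2 CPM (WT and CCR2-DTR at 1 month, then at 6 months), alpha-like cells at 5.44, 9.90, 7.57 and 17.1 CPM, and delta-like cells at 6.39, 7.01, 8.27 and 18.2 CPM. The CCR2-DTR 6-month library was highest in each of the 3 classes and the WT 1-month library lowest. The unnamed endocrine cluster led by Ppy stood at 4.23, 9.58, 8.63 and 9.14 CPM, highest in CCR2-DTR at 1 month. The unnamed cluster led by Car15 stood at 3.41, 7.27, 6.87 and 12.9 CPM, again highest in CCR2-DTR at 6 months. Unnamed endocrine barcodes of low depth (29, 304, 1027 and 613, at a median of 1228 to 2065 UMIs) stood at 0, 55.9, 49.9 and 38.02 CPM, above those 3 classes in each library but WT at 1 month. Per UMI of C1qb, a macrophage gene, there were 7.92 to 12.5 class II UMIs in beta-like, 9.67 to 25.8 in alpha-like and 9.67 to 22.7 in delta-like cells, on 3 to 26 C1qb UMIs per class and library, beside 8.27 to 15.3 in macrophage-like cells. C1qa went the other way, with 1867 UMIs beside 206 class II UMIs in beta-like cells of the WT 1-month library and 2427 beside 24949 in its macrophage-like cells. Of the class II UMIs of beta-like cells 66.5%, 79.7%, 69.9% and 68.1%, in the same order of libraries, lay in barcodes without a UMI of the 7 white blood cell genes named above. Such barcodes were 2715 of 3308, 2334 of 2722, 446 of 600 and 900 of 1174 beta-like cells. In WT at 1 month C1qb, C1qc, Lyz2, Tyrobp and Ptprc had 26, 20, 18, 12 and 0 UMIs in beta-like cells. Most barcodes left out there were thus left out through Fcer1g or Laptm5, and whether those UMIs came from white blood cells was not tested. The summed level of the barcodes without such UMIs was 2.84, 6.95, 6.94 and 9.49 CPM, below that of all beta-like cells in each library. Free RNA from macrophages was not measured, because empty droplets are not in the files, and its part in these levels was not tested. At least 1 of these UMIs was read in 4.90% to 21.6% of beta-like cells, and the share expected at 1000 UMIs per cell was 0.315% to 1.85%.

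H2-DMa stood apart from the other members in endocrine cells. It was read at 1.62 to 1.84 CPM in beta-like cells of the 4 libraries, with 260 UMIs in all, while H2-DMb1 had 12 UMIs, H2-DMb2 2, H2-Oa 1 and Ciita 4. Per 100 UMIs of Cd74 there were 40.3 to 124.7 of H2-DMa in beta-like, 29.3 to 150 in alpha-like and 33.3 to 153 in delta-like cells, against 1.65 to 2.18 in macrophage-like cells. The ranges did not overlap, and H2-DMa in beta-like cells did not follow the order of the libraries that Cd74 had (1.48, 3.32, 3.09 and 4.37 CPM). In beta-like barcodes without a UMI of those myeloid genes H2-DMa stood at 1.62 to 1.97 CPM. In the annotation H2-DMa, at 34119541 to 34139101, overlaps Brd2 on the other strand and 2 genes classed as antisense, 1 of them on its own strand, so reads assigned to H2-DMa in these cells cannot be placed with certainty.

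Other genes of the pathway, from lists chosen with earlier results of these data known, differed with age in mixed directions in macrophage-like cells. Of the 7 genes for proteases and the thiol reductase of the loading compartment, all past the floor, 0 were 1.5-fold higher and 1 lower in WT, and 1 was higher and 0 lower in CCR2-DTR, shares near those of all genes past the floor (8.09% higher and 13.8% lower in WT, 9.06% and 15.7% in CCR2-DTR). Ctss, the cathepsin that cuts the invariant chain, had a ratio of 1.08 (1.02 to 1.14) in WT and 1.501 (1.42 to 1.59) in CCR2-DTR. Ctsd was at 0.302 (0.261 to 0.349) in WT and 1.22 (1.08 to 1.37) in CCR2-DTR. The factors that sit on class II promoters (Rfx5, Rfxap, Rfxank, Nfya, Nfyb, Nfyc and Creb1) had 3 to 36 UMIs per library and 1 of 7 passed the floor, Creb1, at 0.610 (0.337 to 1.09) and 0.860 (0.508 to 1.47).

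Class I presentation, which loads peptides from the cytosol, was compared as the sister pathway. In WT 0 of 9 of its genes past the floor were 1.5-fold higher at 6 months, and in CCR2-DTR 4 of 10. Over all genes past the floor the shares were 8.09% in WT and 9.06% in CCR2-DTR. The median log2 ratios of the class I genes were 0.32 and 0.54. H2-K1 was at 1.25 (1.10 to 1.41) in WT and 1.73 (1.55 to 1.94) in CCR2-DTR, and the immunoproteasome gene Psmb9 at 1.39 (0.918 to 2.14) and 2.23 (1.57 to 3.24). Of 9 listed genes that interferon-gamma induces, 2 passed the floor in WT and 3 in CCR2-DTR. At least 1.5-fold higher at 6 months were 0 of the 2 and all 3: Cxcl10 at 2.00 (1.19 to 3.49), Gbp3 at 1.72 (1.03 to 2.99) and Irgm1 at 1.98 (1.04 to 4.04). These 3 reached 50 CPM in CCR2-DTR through the 6-month library alone. Below the floor there, Cxcl9, Gbp2 and Igtp had ratios above 1, and Iigp1 (0.230, 0.0649 to 0.677) and Gbp7 (0.768, 0.4125 to 1.44) below 1. Socs1 had 0 UMIs at 1 month and 4 at 6 months. Ifng itself had 0 UMIs in the macrophage-like cells of all 4 libraries.

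Of the 8 turnover and co-stimulation genes in the matrices, 4 passed the floor in each genotype. Ratios were above 1 for 3 of them in WT and for all 4 in CCR2-DTR. In WT 1 was 1.5-fold higher and 1 lower, and in CCR2-DTR 2 were higher and 0 lower. Over all genes past the floor, 8.09% and 9.06% were higher and 13.8% and 15.7% lower (WT and CCR2-DTR). Cd83 was at 1.08 (0.706 to 1.68) in WT and 1.09 (0.752 to 1.59) in CCR2-DTR. March1, a ligase that removes class II molecules from the surface, had ratios of 1.49 (0.941 to 2.39) in WT and 1.34 (0.907 to 2.00) in CCR2-DTR. Cd86, a ligand for T cell co-stimulation, was at 0.632 (0.453 to 0.879) in WT and 1.54 (1.13 to 2.11) in CCR2-DTR, and Icosl at 1.81 (1.05 to 3.22) and 2.81 (1.55 to 5.44). Cd86 was thus below 1 in WT and above 1 in CCR2-DTR, and that difference was not tested. Of 13 macrophage subset genes, 9 passed the floor in WT, where 2 were 1.5-fold higher and 3 lower at 6 months. In CCR2-DTR 10 passed, with 1 higher and 5 lower. The higher genes were Ccr2, at 2.12 (1.44 to 3.18), and Il1b, at 2.23 (1.67 to 3.02), in WT, and Itgax, at 1.545 (1.13 to 2.14), in CCR2-DTR. Ccr2 was at 0.829 (0.625 to 1.10) in CCR2-DTR. Among the lower genes, Lyve1 was at 0.0932 (0.0386 to 0.195) in WT and 0.0972 (0.0567 to 0.158) in CCR2-DTR. Folr2 was at 0.110 (0.0382 to 0.260) and 0.0813 (0.0441 to 0.140), and Mrc1 at 0.566 (0.389 to 0.818) and 0.195 (0.141 to 0.265). The share of the Lyve1 and Folr2 sub-cluster was lower at 6 months too.

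Across 52 sums of cells by class and library, the genes whose log levels were most like the mean of H2-Aa, H2-Ab1, H2-Eb1 and Cd74 were Ctss (Pearson's r 0.987), Laptm5 (0.981), Irf5 (0.980), Ly86 (0.979), Scimp (0.979), Cybb (0.979), Spi1 (0.977), Ms4a6c (0.972), Ptprc (0.968) and Slamf9 (0.968), among 5004 genes compared. The points share libraries and depth, and the value is given as a description. In macrophage-like cells Ctss ranged from 3843 to 5769 CPM and Laptm5 from 1081 to 1281 CPM over the 4 libraries, against 8314 to 17181 CPM for H2-Aa.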

How the data were processed

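Single-cell RNA was measured in 4 libraries. The values deposited by the authors are raw UMI counts for each gene in each barcode, made with Cell Ranger 5.0.1 on mm10 per the submitters' processing notes; the other deposited files name genes and barcodes and hold no measurement (unit: other). No annotation release or handling of introns is named in the sources used here, and the barcodes listed were already called as cells.

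Barcodes needed 1000 UMIs, 500 genes and no more than 15% mitochondrial UMIs, and those with a Scrublet score over 0.25 were removed as doublets. Counts scaled to 10000 and logged were clustered (scanpy 1.11.5, 2000 variable genes without the 9 members, digestive enzyme and haemoglobin genes, 30 components, 15 neighbours, Leiden resolution 1, leidenalg 0.10.2), immune cells a second time. Clusters were named from marker sets, or left unnamed.

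UMIs were summed per class and library. Ratios use exact conditional intervals, checked on simulated counts; a count of 0 was set to 3. Genes past a floor of 50 CPM in either library and 10 UMIs over both entered counts, with a threshold of 1.5-fold. No test was run with 1 library per group; whether the pooled animals differ cannot be seen. Named genes are all members, the pathway lists and the 10 genes most like the class II sum (log2 of CPM + 1). The list of genes between interferon-gamma and Ciita is not reported here. The members and lists were chosen with earlier results of these data known.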

Additional observations from a re-analysis of the deposited data

How the results depend on the processing

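For the sum of H2-Aa, H2-Ab1, H2-Eb1 and Cd74 in macrophage-like cells, both age ratios stayed above 1 under all 14 alternatives. Values that left the counting interval of the reported ratio follow; their causes were not tested. For age in WT they were 1.458 with every cell weighted the same, 1.446 with cells thinned to 1000 UMIs, 1.555 with a denominator without hormone, enzyme and member genes, 1.6 relative to the median gene, 1.717 for barcodes chosen by C1q UMIs, 1.384 within sub-clusters, 1.38 without the Lyve1, Folr2 and Cd163 sub-cluster, 1.424 without the Gpnmb and Spp1 sub-cluster and 2.273 with the unnamed immune sub-clusters. For age in CCR2-DTR they were, for the same settings, 1.982, 1.961, 1.973, 2.105, 1.265, 1.638, 1.611 and, with the unnamed sub-clusters, 1.983; they were 1.89 with doublets kept, 1.886 at a mitochondrial limit of 10% and 2.14 without cells over 5% hormone UMIs. For CCR2-DTR against WT at 1 month the ratio passed above 1 for barcodes chosen by C1q UMIs (1.26) and as the mean within sub-clusters (1.239), and was 0.803 with doublets kept, 0.796 at the mitochondrial limit of 10%, 0.8024 with the other denominator, 0.7033 without cells over 5% hormone UMIs, 0.8758 without the Lyve1 sub-cluster and 0.9065 with the unnamed ones. At 6 months it was 1.046 with cells weighted the same, 1.044 thinned, 0.9288 by C1q UMIs, 0.9909 with immune clusters at resolution 2, 1.08 within sub-clusters, 1.04 without the Gpnmb sub-cluster and 0.7909 with the unnamed ones. The choice by C1q UMIs took 381 to 590 barcodes per library, of which 61.4% to 68.3% were beta-like, alpha-like or delta-like cells, where C1qa was read too. The last 3 alternatives, on sub-clusters, were chosen after seeing the data.

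At 2-fold in place of 1.5-fold, 0 members were higher with age in WT; without the floor of 50 CPM, 1 member, H2-DMb2, was higher in CCR2-DTR at 6 months. Of 250 values of single members, 17 lay on the other side of 1 from the reported ratio. In 16 of these the reported counting interval already included 1, among them Ciita with age in WT (0.8765 thinned), H2-Oa with age in WT (0.9387 with cells weighted the same) and H2-Oa in CCR2-DTR against WT at 1 month (1.244 with doublets kept). In 1 it did not: H2-DMa in CCR2-DTR against WT at 6 months was 1.069 when thinned, in a draw that left 88 and 56 UMIs. No paired analysis was possible because each group is 1 library, and for the same reason no replicate could be left out. Depth limits H2-DMb2, H2-Oa and Ciita most.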
